A study of Mus musculus and Homo sapiens with 10 samples.

Results

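The clustered protocadherin genes were followed through windows set around them in mouse embryonic stem cells (mESC) and in K562 cells. Islands of histone acetylation and methylation were taken whether or not they overlapped a protocadherin gene. Members were chosen by position alone: every island overlapping chr18:36880000-38020000 of mm9 in the 3 mouse lists, a window of 1.14 Mb, or chr5:140150000-140900000 of hg19 in the 3 human lists, a window of 0.75 Mb. The windows are meant to hold the alpha, beta and gamma clusters with their distal enhancers, and were chosen with earlier results of these data known. They took in 258 of the 632878 islands of the series, with 100 mESC H3K122ac, 59 mESC H3K64ac, 51 mESC H3K27ac, 17 K562 H3K122ac, 13 K562 H3K27ac and 18 K562 H3K4me1 islands. Of the 258 islands, 5 crossed an end of a window.

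The study used native chromatin cut with micrococcal nuclease and compared acetylation in the globular domain of histone H3, at lysines K122 and K64, with the tail mark H3K27ac. The mouse groups were H3K122ac, H3K64ac and H3K27ac in 46c cells, a Sox1-GFP reporter line of ESCs at passages 25 to 28, grown without feeders in serum with LIF, with 2 replicate libraries per mark. The human groups were H3K122ac, H3K27ac, H3K4me1 and input chromatin in K562, an established erythroleukaemia line at passage 14, with 1 library each. The labels name no treatment or genetic change other than the reporter of 46c. The series holds no RNA measurement, so the labelled cell types were not checked against marker transcripts.

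Clustered protocadherins are cell-surface adhesion proteins of the cadherin superfamily, known above all from neurons. There each cell transcribes a few members, so that neighbouring neurons carry different combinations on their surface. In the alpha and gamma clusters a row of variable first exons, each behind its own promoter, is spliced to a shared set of constant exons, while the beta genes consist of single exons. Distal enhancers and the looping factor CTCF bring an enhancer to a chosen promoter. H3K27ac marks active promoters and enhancers, H3K4me1 is typical of enhancers, and K122 and K64 lie in the body of the nucleosome where histone and DNA touch.

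The order of the genes in mouse, taken as names only from RefSeq's table for GRCm38, was 14 alpha genes (Pcdha1 to Pcdhac2), 22 beta genes (Pcdhb1 to Pcdhb22), Slc25a2 and Taf7, and 22 gamma genes (Pcdhga1 to Pcdhgc5, 1 of them a pseudogene), followed by Diaph1. Hars, Hars2 and Zmat2 stand before the alpha genes. Because that table belongs to another build than the lists, no island was assigned to a gene, and islands are named by mm9 or hg19 coordinates. The variable exons are similar in sequence. The labels do not say how reads matching several places were handled, and the part this has in the counts was not tested.

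An island is a run of enriched 200 bp windows joined by the authors' peak caller. Its fold is the ratio of immunoprecipitated to background reads, divided by a library ratio per list, and is the authors' value. Within a cell line the lists rest on the same background reads: of the islands in these windows with the same ends in 2 lists, 11, 2 and 3 in the mESC pairs and 1, 3 and 1 in the K562 pairs, each had equal background counts. Folds were therefore read only within a list. The mouse replicates were merged before islands were called, so there was 1 list per mark and no replicate test. Intervals given with folds and shares are exact 95% intervals for counting error only, and neighbouring islands are not independent. In the mouse window the islands held 40974 H3K122ac, 29417 H3K64ac and 17303 H3K27ac reads, and in the human window 2527 H3K122ac, 2019 H3K27ac and 2865 H3K4me1 reads.

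In mESC the protocadherin window was dense in short, well enriched H3K122ac islands. The 100 islands amounted to 87.7 per Mb, against 36.1 per Mb over all chromosomes, and their median length was 1200 bp, against 1800 bp. They covered 16.2% of the window. The flanks of equal length on either side held similar numbers, 90 and 88 islands, but these had a median length of 2600 bp each and covered 28.6% of each flank. The window thus had as many H3K122ac islands as its surroundings and less covered sequence.

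H3K122ac folds in the window were high for the list. The median was 4.78 (quartiles 3.41 to 5.96), against 2.83 (1.93 to 4.43) in the whole list, 2.93 in the flank before and 2.5 in the flank after. A fold of 3 or more was reached by 83 of the 100 islands (83%, interval 74.2 to 89.8%), against 46.3% of all H3K122ac islands. Both counts behind the fold differed from the list: the median was 209 H3K122ac reads per kb against 150, and 49.8 background reads per kb against 61.9. The part of the lower background in the fold was not tested.

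H3K64ac was about as frequent per Mb as in the flanks and H3K27ac was sparser. The window held 51.8 H3K64ac islands per Mb, against 60.5 and 50 in the flanks and 22.4 over all chromosomes. It held 44.7 H3K27ac islands per Mb, against 89.5 and 107 in the flanks and 47.5 over all chromosomes. Both marks covered less of the window than of the flanks. H3K64ac covered 13.5%, against 31.2% and 27.1%, and H3K27ac 6.63%, against 19.9% and 25.7%. Median folds were near those of the lists, at 2.72 against 2.42 for H3K64ac and 1.53 against 1.49 for H3K27ac. None of the 51 H3K27ac islands reached a fold of 3 (upper limit of the interval 6.98%), against 4.44% of the whole list. At a q-value of at most 1e-10 22 of the 51 were left, and 5 had a fold of at least 2. In the whole list 47268 of 122097 islands passed that q-value and 21745 that fold.

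**Figure D1:**
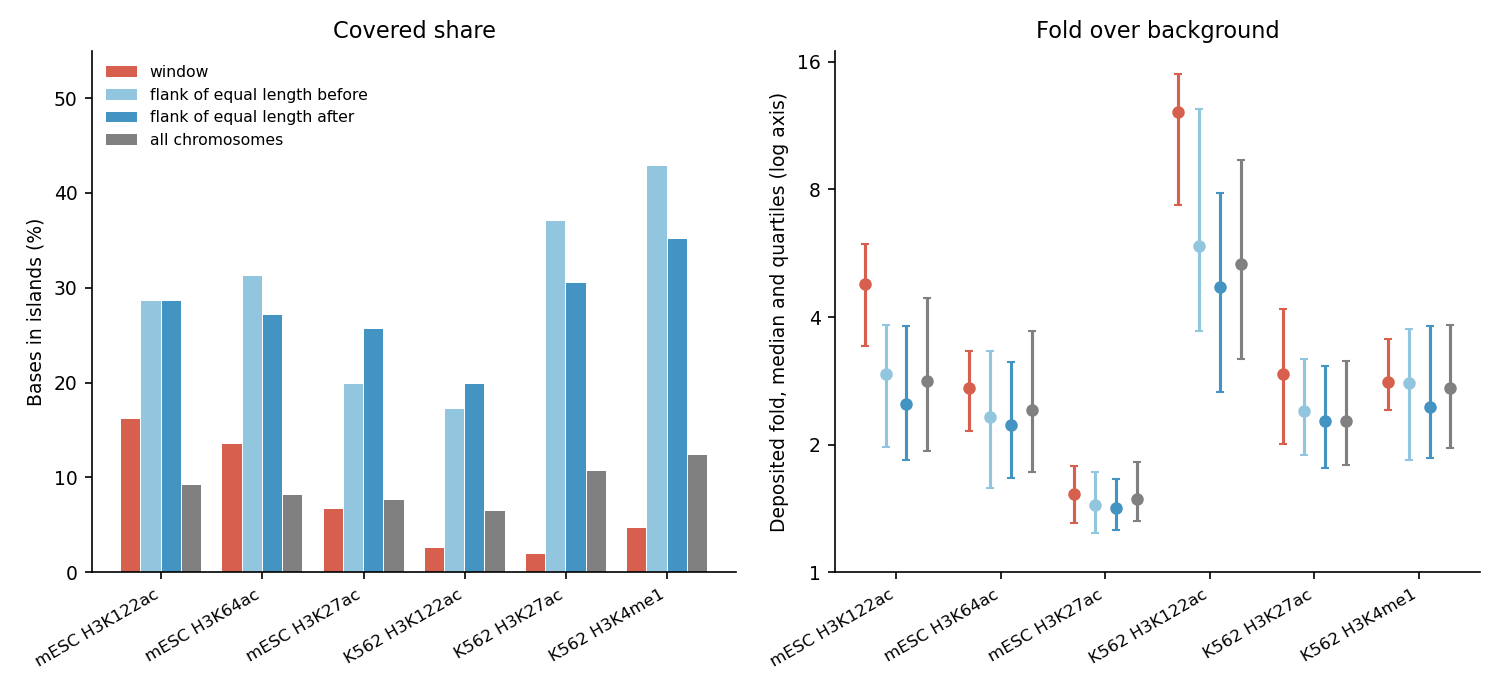
Left, percent of bases inside islands, and right, deposited fold (median with quartiles, log axis), for the 6 lists in the protocadherin window, in the flanks of equal length before and after it, and over all chromosomes. The window lies below its flanks in covered share in every list, while its H3K122ac islands have a higher median fold than either flank and the whole list in both cell lines, 4.78 in mESC and 12.2 in K562.

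The study's question, how far globular-domain acetylation occurs without H3K27ac, was put to these islands. In mESC 39 of the 100 H3K122ac islands met an H3K27ac island by at least 1 bp (39%, interval 29.4 to 49.3%), where 55.6% of the whole list did so. The share was 62% on chromosome 18 and 55.4% in both flanks combined. H3K122ac islands of the protocadherin window thus met H3K27ac less often than the list, a gap that reached beyond the counting interval. That interval treats islands as independent, while of the 61 islands without H3K27ac 13 lay in a run of 361 kb and 14 in a run of 104 kb. The window's H3K122ac islands were also shorter than the list's (median 1200 against 1800 bp). Those that met H3K27ac had a median length of 2000 bp and the others 1000 bp. The part of island length in the gap was not tested. The share was 24% when 50% of the island had to be covered, 20.8% with a q-value of at most 1e-10 in both lists and 4.21% with a fold of at least 2 in both, where the whole list gave 41%, 36.7% and 17.9%.

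H3K64ac did not show this gap. It was met by 64 of the 100 H3K122ac islands (64%, interval 53.8 to 73.4%), where 60.6% of the list did so. Every one of the 39 islands with H3K27ac also carried H3K64ac, and none carried H3K27ac without it, a class that makes up 11.1% of the list; a count of 0 in 100 allows up to 3.62% by the exact interval. A further 25 islands carried H3K64ac without H3K27ac (25% against 16.1% of the list), and 36 carried neither (36%, interval 26.6 to 46.2%, against 28.3%).

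Islands without either partner were short but not low in fold. Their median fold was 4.38, against 2.1 for such islands in the whole list. A fold of 3 was reached by 29 of the 36, by 83 of all 100 in the window and by 46.3% of all H3K122ac islands. Islands with both partners had a median fold of 5.16, against 3.69 in the list, and those with H3K64ac alone 4.46, against 2.87. Median lengths in the window were 900 bp with neither mark, 1200 bp with H3K64ac alone and 2000 bp with both. Background was 40.2 reads per kb in the islands with neither mark and 57.9 in those with both. The 36 islands with neither mark held a median of 172 H3K122ac reads each, against 407 in the 64 that met H3K64ac. The part of the lower background in their folds was not tested. The 61 H3K122ac islands without H3K27ac were at a median distance of 11.8 kb from H3K27ac, and for 14 of these the distance exceeded 50 kb.

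Read from the other side, H3K27ac in the window was nearly always accompanied. Of the 51 H3K27ac islands 47 met H3K64ac (92.2%, interval 81.1 to 97.8%, against 50.2% of the list) and 43 met H3K122ac (84.3%, interval 71.4 to 93%, against 55%). Neither was met by 4 (7.84%, interval 2.18 to 18.9%), against 40.1% of all mESC H3K27ac islands. The flanks lay closer than the list, with 67.3% of H3K27ac islands meeting H3K64ac and 61% meeting H3K122ac. With a q-value of at most 1e-10 in both lists, 20 of 22 met H3K122ac (90.9% against 71.3% of the list). With a fold of at least 2 in both, 4 of 5 did so (80% against 67.4%). H3K64ac islands met H3K122ac in 57 of 59 cases (96.6% against 93.5%) and H3K27ac in 37 (62.7%, interval 49.1 to 75%, against 72.5%). Under the 3 stricter settings above the latter share was 39%, 39.2% and 10.4%, against 50.3%, 52.5% and 29% of the list. Split by partners, 35 of the 59 H3K64ac islands met both other marks (59.3% against 68.8% of the list), 22 H3K122ac only (37.3% against 24.7%), 2 H3K27ac only (3.39% against 3.77%) and 0 neither (upper limit 6.06%, against 2.77%). Among the H3K27ac islands 43 met both globular marks (84.3% against 45.3%), 4 H3K64ac only (7.84% against 4.89%) and 0 H3K122ac only (upper limit 6.98%, against 9.77%).

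**Figure D2:**
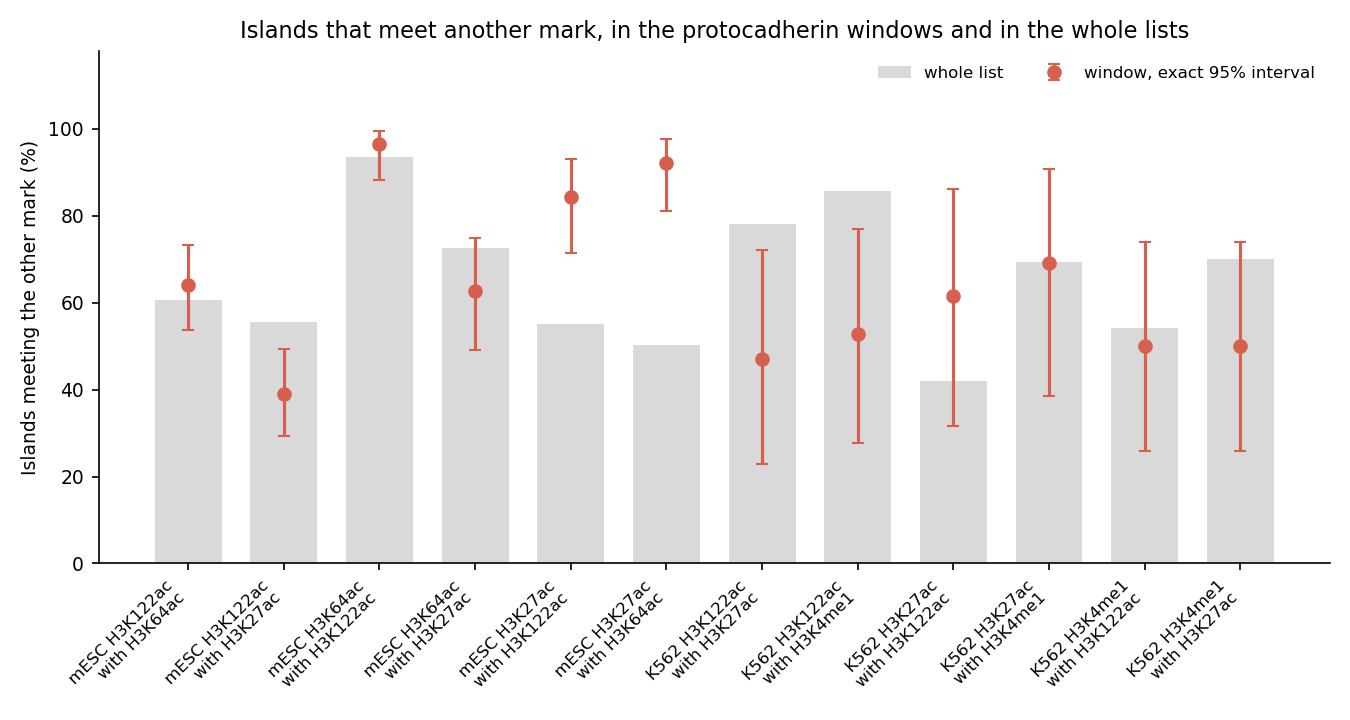
Percent of islands of each list that meet an island of another mark, for the whole list (bars) and for the protocadherin window (points with exact 95% intervals). In mESC the window lies below the list for H3K122ac with H3K27ac (39 against 55.6%) and above it for H3K27ac with either globular mark, and in K562 it lies below for H3K122ac with H3K27ac and with H3K4me1.

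The marks were unevenly spread along the mouse window. In its first 100 kb all 3 marks were present, with 8 H3K122ac, 9 H3K64ac and 12 H3K27ac islands that covered 31.4%, 35% and 26% of the bases. A stretch without any island followed, chr18:36963801-37098800, of 135 kb, the longest in the window. The next longest island-free stretch was chr18:37182401-37249200, of 66.8 kb. From 400 kb onward all 3 marks returned, and in the last 40 kb H3K122ac covered 56.5%, H3K64ac 76% and H3K27ac 55.5% of the bases. Whether the islands at these ends lie over protocadherin genes or over their neighbours was not determined.

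Between these ends lay a long stretch with H3K122ac alone. No H3K27ac island was called from chr18:36963601-37324600, a run of 361 kb or 31.7% of the window, and no H3K64ac island from 36963601 to 37323000, a run of 359 kb. The same run held 13 H3K122ac islands with 2814 reads, a median fold of 3.94 and a range of 1.93 to 12.8. The stretch was picked out after its values were seen. Over all chromosomes 401 H3K27ac-free stretches between neighbouring islands were at least as long. They held a median of 2 H3K122ac islands, 45 held none, and 3 of them, this one included, held 13.

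The 13 islands of this run came in a row. They began with chr18:37098801-37099600 at a fold of 5.16 (3.2 to 8.71, 99 reads over 21 of background), chr18:37105601-37108200 at 3.65, chr18:37112201-37114600 at 3.15 and chr18:37119801-37123600 at 3.94 (3.26 to 4.78). The folds of these neighbours had overlapping intervals. The highest, at chr18:37133401-37133800, was 12.8 (6.73 to 27.4) from 117 reads over only 10 background reads. The lowest fold of the run was 1.93 (1.34 to 2.83) at chr18:37171801-37172600, and chr18:37179801-37182400 had 2.24 (1.78 to 2.82). The final islands had folds of 2 (1.57 to 2.57) at chr18:37249201-37250400 and 3.22 (2.66 to 3.93) at chr18:37302801-37304600. They followed island-free stretches of 66.8 and 52.4 kb. Just beyond the run chr18:37324601-37326000 carried the first H3K27ac island, at a fold of 2.1 (1.65 to 2.71). It lay inside H3K122ac and H3K64ac islands with folds of 4.08 and 3.63.

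**Figure D3:**
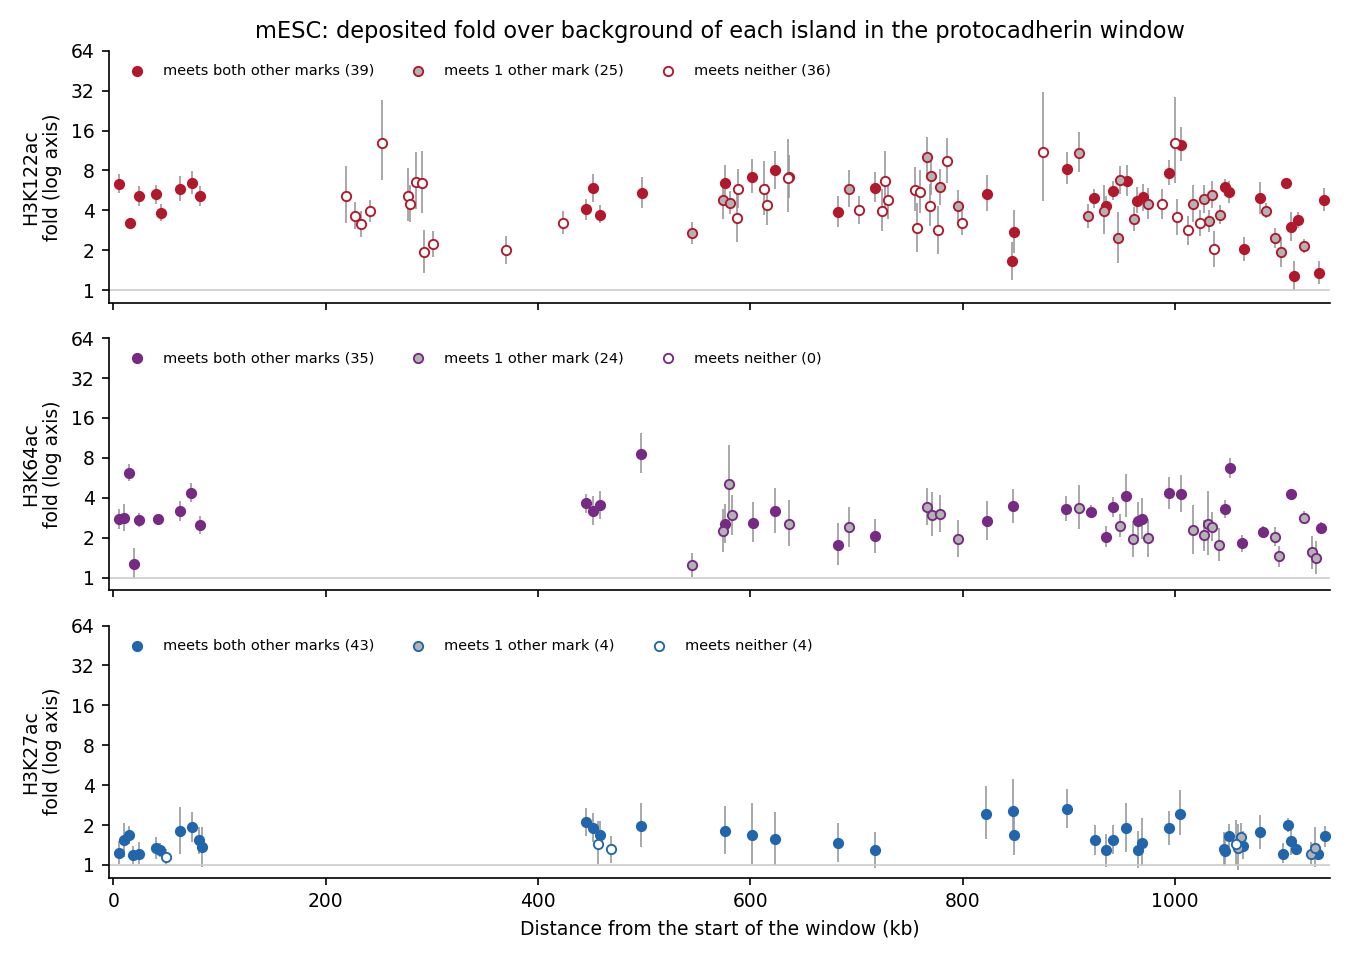
Deposited fold of each mESC island in the window (points, log axis; vertical lines are exact 95% counting intervals) by the distance of its centre from the start of the window in kb. Fill shows whether the island meets both, 1 or neither of the other marks. From 100 to 400 kb only H3K122ac points are present, and none of them meets another mark.

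The H3K122ac islands of highest fold, among those with at least 10 background reads, were spread over the window and over the classes of partners. After the island at 12.8 came chr18:37885201-37886400 at 12.4 (9.37 to 16.9, 591 reads over 52), which met both other marks. Next were chr18:37789201-37790000 at 10.9 (7.76 to 15.7) and chr18:37646001-37647400 at 10.1 (7.23 to 14.4), both with H3K64ac and without H3K27ac, and chr18:37665201-37666400 at 9.36 (6.44 to 14.1) with neither. The intervals of all 5 overlapped, so their order was not resolved at this depth. Their folds stood above 97.2 to 99.2% of the whole list.

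The 5 highest H3K27ac islands stood out less within their own list. They were chr18:37778001-37779000 at 2.63 (1.9 to 3.72), chr18:37727201-37727600 at 2.54, chr18:37885401-37885800 at 2.44, chr18:37701801-37702400 at 2.42 and the island at 37324601 described above. These folds stood above 85.8 to 93.9% of the list, and all 5 islands met both globular marks. H3K64ac was highest at chr18:37377201-37378000, at 8.58 (6.15 to 12.3, 362 reads over 39), above 97.3% of its list. That island also met H3K122ac and H3K27ac, with folds of 5.41 and 1.97. H3K64ac then reached 6.69 (5.6 to 8.04) at chr18:37929801-37933400, 6.16 at chr18:36893401-36896400, 5.05 at chr18:37460401-37460800 and 4.37 at chr18:36951801-36955200.

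Long regions with all 3 marks lay toward the ends of the mouse window. Joining overlapping islands gave 95 regions, of which 32 carried all 3 marks over 140 kb in total, 21 carried H3K122ac and H3K64ac, 36 H3K122ac alone, 4 H3K27ac alone and 2 H3K64ac with H3K27ac. The longest with all 3 was chr18:36888801-36906600, of 17800 bp, with H3K122ac folds up to 5.16 and H3K64ac folds up to 6.16. The next, chr18:37981001-37998000, of 17000 bp, was a single H3K64ac island of 5378 reads at a fold of 4.25 (3.99 to 4.54) that held 4 H3K122ac and 4 H3K27ac islands. The highest H3K122ac fold in it was 6.41 (5.84 to 7.04), at chr18:37981001-37988200, with 7200 bp and 3072 reads. It was followed by chr18:37957801-37968600 with 10800 bp, a single H3K64ac island at a fold of 2.22 (2.01 to 2.45), chr18:36917401-36927000 with 9600 bp and chr18:38013401-38022400 with 9000 bp, which runs past the end of the window.

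The longest single islands lay in these regions. The longest H3K122ac island, chr18:36889401-36902200, spanned 12800 bp at a fold of 3.19 (2.95 to 3.46). The longest H3K27ac islands, chr18:37990801-37996600 of 5800 bp and chr18:36921601-36927000 of 5400 bp, had folds of 1.31 (1.18 to 1.46) and 1.3 (1.15 to 1.47). With the window shortened by 100 kb at each end, 77 H3K122ac, 38 H3K64ac and 23 H3K27ac islands were left, and 27.3% of the H3K122ac islands met H3K27ac. H3K122ac was thus the mark that kept most of its islands in the interior, and the share with H3K27ac was lower there than in the whole window.

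In K562 the protocadherin window held fewer islands of all 3 marks than its flanks. It held 22.7 H3K122ac islands per Mb, against 58.7 and 61.3 in its flanks, 17.3 H3K27ac islands per Mb, against 176 and 155, and 24 H3K4me1 islands per Mb, against 104 and 111. Over all chromosomes the densities were 24.7, 59.2 and 38.7 per Mb, and 20.2, 50.4 and 33 on chromosome 5. H3K122ac density in the window was thus close to that of the genome, while H3K27ac and H3K4me1 were sparser than over all chromosomes and over chromosome 5. Islands covered 2.56% of the window for H3K122ac, 1.97% for H3K27ac and 4.64% for H3K4me1, where the flanks were covered to 17.2 and 19.9%, 37 and 30.5%, and 42.8 and 35.2%. The shares over all chromosomes were 6.5%, 10.7% and 12.4%, so less of the window was covered by each mark than of the genome. Background reads per kb in the H3K122ac islands of the window were 40.6, against 52.5 in the list.

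The islands that were present were strong for H3K122ac. The 17 H3K122ac islands had a median fold of 12.2 (quartiles 7.37 to 15), against 5.34 (3.18 to 9.4) in the list and 5.88 and 4.71 in the flanks. Their median was 142 reads per kb, against 70. A fold of 3 or more was reached by 16 of 17 (94.1%, interval 71.3 to 99.9%), where 77.6% of the list reached it, so this share did not differ beyond counting error. For H3K27ac 6 of 13 reached it (46.2%, interval 19.2 to 74.9%, against 27.9%) and for H3K4me1 7 of 18 (38.9%, interval 17.3 to 64.3%, against 42.4%). Of the 13 H3K27ac islands 8 had a q-value of at most 1e-10, as had 98339 of 173981 in the list.

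Fewer of these H3K122ac islands had partners than in the list as a whole. H3K27ac was met by 8 of 17 (47.1%, interval 23 to 72.2%, against 78.1%) and H3K4me1 by 9 of 17 (52.9%, interval 27.8 to 77%, against 85.8%). The flanks gave 88.9% and 95.6%. The window's H3K122ac islands had a median length of 1000 bp, against 1800 bp in the list. The part of island length in these shares was not tested. The share with H3K27ac was 23.5% (4 of 17, list 68.5%) when 50% of the island had to be covered, and that with H3K4me1 was 31.2% (5 of 16, list 80%) with a q-value of at most 1e-10 in both lists. With a fold of at least 2 in both lists the gaps were smaller. The share was then 47.1% (8 of 17) with H3K27ac, against 65.5% of the list, a value inside the interval of 23 to 72.2%. With H3K4me1 it was 47.1% (8 of 17), against 75.7%. Both marks were met by 4 islands (23.5%, interval 6.81 to 49.9%, against 73.9%), H3K27ac alone by 4 (23.5% against 4.26%), H3K4me1 alone by 5 (29.4%, interval 10.3 to 56%, against 11.9%) and neither by 4 (23.5%, interval 6.81 to 49.9%, against 9.97%). The share with both marks lay below that of the list, whose value was outside the counting interval. That interval treats neighbouring islands as independent. The H3K27ac list read from its own side gave 8 of 13 islands with H3K122ac (61.5%, interval 31.6 to 86.1%, against 41.9%) and 9 of 13 with H3K4me1 (69.2%, interval 38.6 to 90.9%, against 69.4%). Of the 13, 4 met both (30.8% against 39.2%), 4 H3K122ac only (30.8% against 2.63%), 5 H3K4me1 only (38.5% against 30.1%) and 0 neither (upper limit 24.7%, against 28%).

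The start of the human window was empty. No island of any list lay in chr5:140150001-140474000, a run of 324 kb or 43.2% of the window, and the gap reached back to 140106601 outside it. Over all chromosomes 774 stretches between neighbouring islands of the 3 lists were at least as long as this gap of 367 kb. A further island-free run, chr5:140530801-140677200, spanned 146 kb. What was called therefore fell into a small group from 140474001 to 140530800, a larger one from 140677201 to 140793600, and a last one, without H3K122ac, from 140855001 onward.

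The small group held 4 H3K122ac islands with decreasing folds. Values were 11.2 (8.06 to 15.9, 142 reads over 49) at chr5:140474001-140475000 and 9.35 (6.96 to 12.7) at chr5:140480001-140481600, both with H3K27ac, at H3K27ac folds of 3.01 (1.9 to 4.86) and 2.5 (1.49 to 4.27). The next island, chr5:140514801-140516200, had a fold of 5.78 (4.13 to 8.13) and no partner. The last, chr5:140529601-140530600, had a fold of 4 (2.36 to 6.77, 32 reads over 31) and met H3K4me1 at 2.49. The first and the last of these folds had separate intervals.

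The larger group held the strongest islands of the window in all 3 lists. At chr5:140699801-140701200 H3K122ac reached a fold of 31.6 (24.4 to 41.4), from 538 reads over 66, above 99.5% of the list. The H3K27ac island there, chr5:140699601-140701400, had a fold of 7.74 (6 to 10.1), above 98.5% of its list. At its ends lay H3K4me1 islands, chr5:140697601-140699800 at 5.79 (4.33 to 7.84), the highest H3K4me1 fold of the window, and chr5:140700601-140702000 at 3.17. Joined, they formed the longest region with all 3 marks, chr5:140697601-140702000, of 4400 bp. The H3K122ac interval there did not overlap that of any other island in the window except those at chr5:140705601-140707000, chr5:140739401-140740000 and chr5:140772001-140773200.

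The following islands kept high H3K122ac folds while their partners varied. At chr5:140705601-140707000 the H3K122ac fold was 19.2 (15 to 24.7), with H3K27ac at 5.84 (4.49 to 7.68) and H3K4me1 at 2.91. At chr5:140713601-140714600 it was 15.5 (10.8 to 22.6), with H3K27ac at 4.18 (2.88 to 6.18) and H3K4me1 at 4.55 (3.12 to 6.76). This island had the same ends in all 3 lists. At chr5:140762201-140763200 it was 11.2 (8.12 to 15.8), with H3K27ac at 2.2 and H3K4me1 at 2.09. These 4 were the only H3K122ac islands of the human window with both partners.

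Between them lay islands of 600 bp with H3K122ac alone. They were chr5:140718201-140718800 at a fold of 12.7 (7.71 to 21.8), chr5:140729601-140730200 at 13.7 (8.27 to 23.8) and chr5:140739401-140740000 at 15 (9.39 to 24.8). Their counts were 69, 71 and 89 reads over 21, 20 and 23 of background. The intervals overlapped those of the neighbours with partners. Others had a single partner: chr5:140723201-140723800 at 12.2 and chr5:140772001-140773200 at 18.5 (13 to 26.8) met H3K27ac, at folds of 3.42 and 4.61, the latter from 57 reads over 18.

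H3K4me1 was the single partner of 5 H3K122ac islands, 4 of them in the larger group. These were chr5:140749801-140750400 at an H3K122ac fold of 14.3 (8.94 to 23.8) with H3K4me1 at 3.96, and chr5:140734601-140737200 at 7.37 (5.5 to 9.94), the longest H3K122ac island of the window with 2600 bp. Lower values were found at chr5:140792401-140793600, with 5.27 (3.71 to 7.53), and at chr5:140679801-140681200, with 2.65 (1.81 to 3.85), the lowest H3K122ac fold of the window. At this last island H3K4me1 had a fold of 3.3 (2.47 to 4.45). Beside it, chr5:140677201-140678800 carried H3K4me1 at 3.63 (2.74 to 4.84), the fifth highest fold of that list in the window, with H3K27ac at 1.83 and no H3K122ac.

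The end of the human window carried H3K4me1 and H3K27ac without H3K122ac. No H3K122ac island lay in its last 106 kb. H3K4me1 alone was found at chr5:140855001-140856200, chr5:140863801-140865000, chr5:140865801-140867200 and chr5:140884401-140890400, with folds of 2.49, 2.72, 1.95 and 1.53. The last of these, of 6000 bp, was the longest island of the window and the weakest H3K4me1 island in it. At the border of the window the H3K27ac islands chr5:140893401-140897800 and chr5:140898201-140903200 had folds of 2.01 (1.7 to 2.39) and 2.93 (2.49 to 3.45), the latter beside H3K4me1 at 4.19 (3.58 to 4.91). The former met chr5:140891201-140896200, which with 5000 bp was the next longest H3K4me1 island of the window, at a fold of 2.4 (2.04 to 2.82). In all, 9 of the 18 H3K4me1 islands met H3K122ac (50%, interval 26 to 74%, against 54.2% of the list) and 9 met H3K27ac (50%, interval 26 to 74%, against 70%). Both were met by 4 (22.2% against 46.5%), H3K122ac only by 5 (27.8% against 7.74%), H3K27ac only by 5 (27.8% against 23.5%) and neither by 4 (22.2% against 22.2%).

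**Figure D4:**
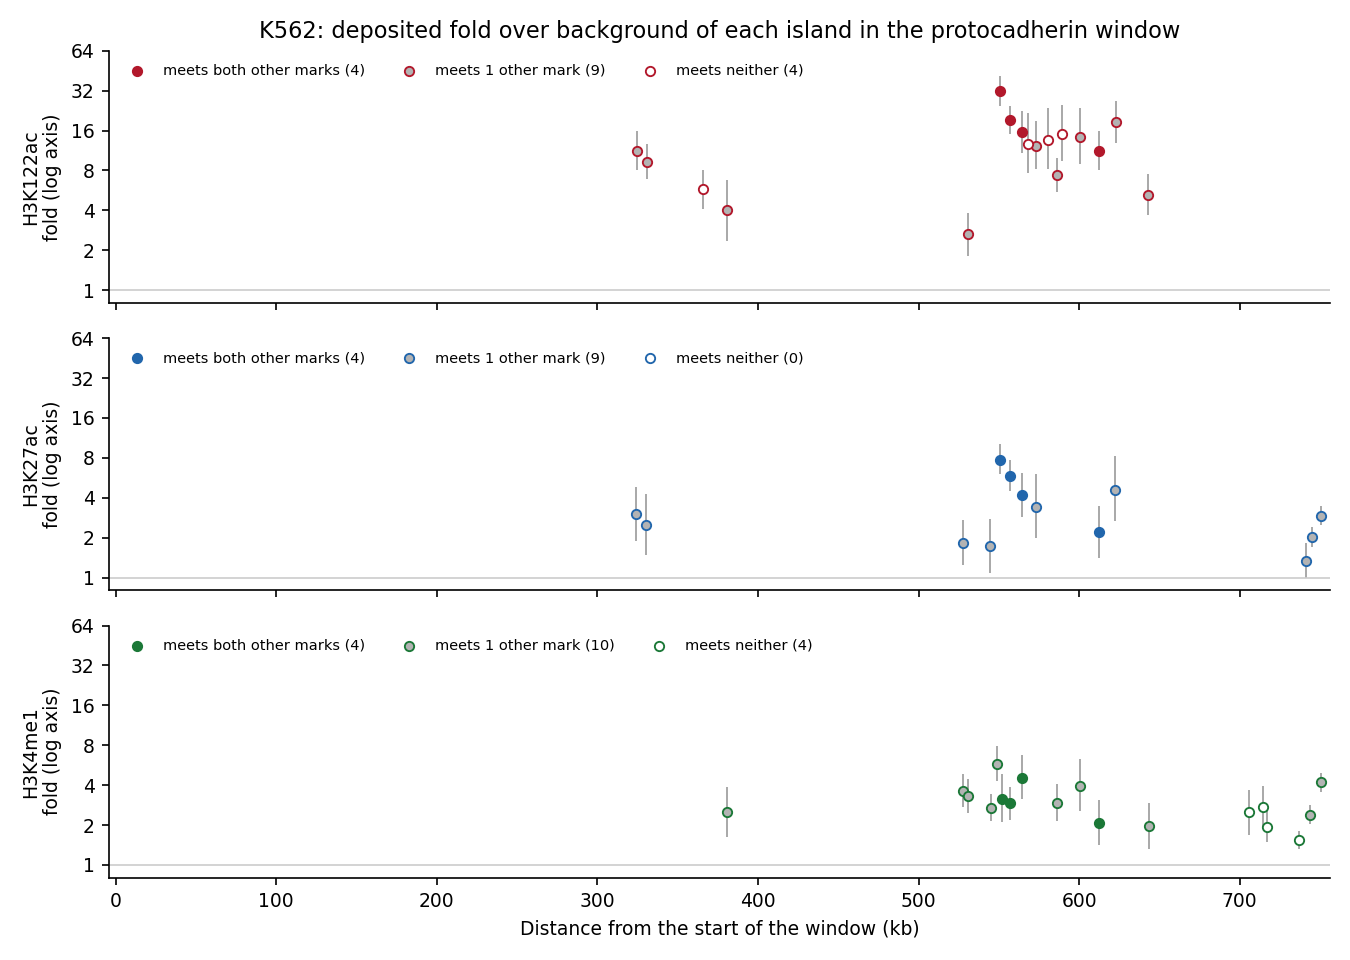
Deposited fold of each K562 island in the window (points, log axis; vertical lines are exact 95% counting intervals) by the distance of its centre from the start of the window in kb, with fill showing how many of the other marks it meets. No point lies in the first 324 kb, and the highest H3K122ac and H3K27ac points, 31.6 and 7.74, lie next to each other near 550 kb.

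Side by side, each window held a run of more than 300 kb without H3K27ac in its first part, 361 kb in mESC and at least 324 kb in K562. In 100 kb steps, mESC H3K122ac was present in 11 of 12 steps and K562 H3K122ac in 3 of 8. H3K27ac was present in 9 of 12 and in 4 of 8 steps. Where H3K122ac was called, its islands were short in both lines, with medians of 1200 and 1000 bp. No partner was met by 36 of 100 and 4 of 17. The whole lists gave 28.3% and 9.97%, both inside the counting intervals of the windows. Organism, depth, the third mark and the merging of replicates all differ between the lines, so their difference was not tested.

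**Figure D5:**
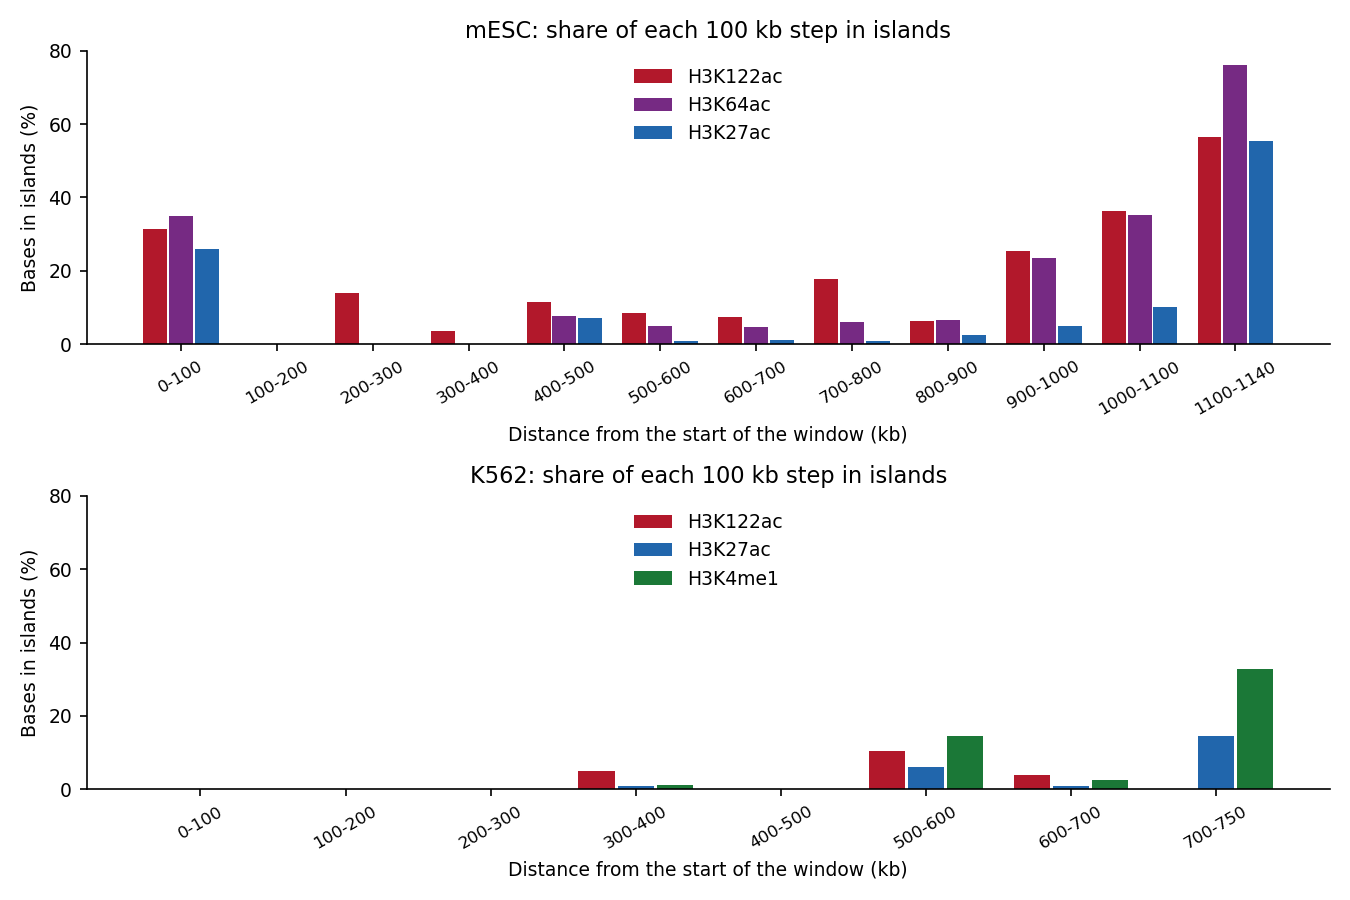
Percent of bases inside islands of each mark in successive 100 kb steps from the start of the window, in mESC (upper; the last step is 40 kb) and K562 (lower; the last step is 50 kb). In mESC H3K122ac is the only mark between 200 and 400 kb, and in K562 the first 300 kb hold no island of any mark.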

How the data were processed

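The 10 libraries, 6 from mESC and 4 from K562, were grouped by title. All were native chromatin immunoprecipitations except K562 input, which was input chromatin. Bowtie 0.12.8, HOMER 4.3, SICER 1.1, mm9 and hg19 appear in the submitters' processing notes, without roles. The deposited lists give whole-number read counts per island for the immunoprecipitated and the background library, not normalized by the authors. The deposited q-value comes from the authors' caller, and the deposited fold is a ratio of counts scaled by a library ratio per list. That ratio ran from 0.258 for K562 H3K122ac to 2.19 for mESC H3K27ac. List names give 200 bp windows, a 0.01 false discovery rate and gaps of 600 bp, or 200 bp for H3K27ac. K562 input had no list analysed here.

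With Python 3.11.15 and scipy 1.17.1, islands were matched by an overlap of at least 1 bp, and shares and folds were given exact (Clopper-Pearson) 95% intervals. Flanks were the stretches of equal length on either side. Densities over all chromosomes used the span from the first to the last island. The 5 islands of highest fold with at least 10 background reads and the 2 longest per list were named, all islands of a list where 10 or fewer, the 5 longest regions with all marks and the 2 longest island-free stretches; other islands named were chosen after their values were seen. No test was run, since there was 1 list per mark. The members, window and lists were chosen with earlier results of these data known. The code was tested on simulated islands. Regions were not assigned to genes, and their sequences are not shown, as no genome of these builds was used.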

Additional observations from a re-analysis of the deposited data

How the results depend on the processing

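The 6 counts of islands and 8 shares were recomputed under alternatives, giving 92 values, of which 76 stayed within 1.5 times the count or inside the counting interval of the share. A window shortened by 100 kb was an alternative chosen after seeing the data. Counts moved for mESC H3K27ac, from 51 to 22 with a q-value of at most 1e-10, to 5 with a fold of at least 2 and to 23 with the window shortened by 100 kb at each end, for mESC H3K64ac, from 59 to 38 in the shortened window, and for K562 H3K27ac, from 13 to 8 with the stricter q-value. The share of mESC H3K122ac islands with H3K27ac moved from 39% to 24% when 50% of the island had to be covered, 20.8% with the stricter q-value, 4.21% with a fold of at least 2 in both lists and 27.3% in the window shortened by 100 kb. That of mESC H3K64ac islands with H3K27ac moved from 62.7% to 39%, 39.2% and 10.4% under the first 3 of these. The share of mESC H3K64ac islands with H3K122ac rose from 96.6% to 100% with the stricter q-value, with a fold of at least 2 and with the window shortened by 50 kb or 100 kb. Stricter thresholds and shorter windows leave fewer islands by construction; otherwise the cause was not tested. No paired analysis was possible because the mouse replicates were merged before islands were called, and for the same reason no replicate could be left out. In the human window H3K122ac islands held 32 to 538 reads and shares rest on 13 to 18 islands, so their intervals are wide: the fall from 47.1% to 23.5% with H3K27ac and from 52.9% to 31.2% with H3K4me1 counted as staying inside them.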
